A study of Mus musculus with 4 samples.

Results

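Cd36 and 9 other genes of fatty acid uptake and storage were followed in AML12 cells with a hairpin against Safb and in AML12 cells with a control hairpin. The 10 genes, out of 52192 in the deposited table, were taken by symbol: Cd36, Fabp1, Fabp4, Fabp5, Slc27a1, Slc27a2, Slc27a4, Slc27a5, Plin2 and Lpl. Each symbol matched 1 row. The set was chosen from the same values that it is described with, since Cd36 was picked for its low shSafb values and the others to stand beside it. The members' differences are therefore given as a description, with no p-value.

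The shSafb group held 2 libraries of AML12 cells infected with a lentivirus for a short hairpin RNA (shRNA) against Safb, which encodes a protein of the nuclear matrix (scaffold attachment factor B). The shCtrl group held 2 libraries of AML12 cells infected with a control shRNA lentivirus. AML12 is a mouse hepatocyte line established from a mouse with a transforming growth factor alpha transgene. Both groups were grown in medium with 10% fetal bovine serum, an ITS (insulin, transferrin, selenium) supplement and 0.1 uM dexamethasone, a glucocorticoid, and were collected 5 days after the step that the labels call transfection. The labels name 1 hairpin per group. They give the replicates only a number, so the libraries may be technical repeats and each p-value here covers no more than their spread.

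Levels are given in TPM, a normalised transcript abundance in which each library has the same total and gene length is divided out, so that genes can be compared with each other. TPM keeps no read totals, so the depth is unknown. The total was 999843 TPM in the shSafb libraries and 999891 TPM in the shCtrl libraries, and 12946 to 13117 genes reached 1 TPM in a library. Safb was at 15.8 and 15.02 TPM in the shSafb libraries, against 23.8 and 23.3 TPM in the shCtrl libraries, which is 1.53-fold lower, so most of the Safb RNA remained. The hepatocyte label was checked against 15 marker genes, 14 of which averaged at least 1 TPM. Ttr and Trf were abundant, while Cps1 was at 0.99 to 2.02 TPM and Apoa2 did not pass 0.367 TPM. In bulk RNA, fewer cells that express a gene and less of its RNA per cell cannot be told apart.

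Long-chain fatty acids enter hepatocytes by several routes. CD36 is a surface receptor that binds fatty acids and oxidised lipoproteins, and the fatty acid transport proteins of the Slc27a family couple uptake to activation with coenzyme A. Inside the cell, fatty acid binding proteins (Fabp genes) carry the lipids through the cytosol, and perilipin 2 coats the droplets in which they are stored as triglyceride. Lipoprotein lipase, the product of Lpl, frees fatty acids from circulating lipoproteins and is low in adult liver. In normal mouse liver, Fabp1, Slc27a2 and Slc27a5 are the characteristic carrier genes, and many genes of this set are known targets of PPAR nuclear receptors.

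The promoters of Cd36, of Fabp1, the other member that was several-fold lower in shSafb, and of Plin2, the most abundant member, are shown for comparison. The 250 bases before the RefSeq start on GRCm38.p6 were read, which was possible for 6 of the 10 members (Cd36, Fabp1, Slc27a1, Slc27a2, Slc27a4 and Plin2). Capitals mark matches on either strand to the nuclear receptor half-site AGGTCA, the TATA box written as TATAAA, the NF-Y box written as CCAAT, or the GC box written as GGGCGG.
Cd36, chr5:17835897-17836146, minus strand: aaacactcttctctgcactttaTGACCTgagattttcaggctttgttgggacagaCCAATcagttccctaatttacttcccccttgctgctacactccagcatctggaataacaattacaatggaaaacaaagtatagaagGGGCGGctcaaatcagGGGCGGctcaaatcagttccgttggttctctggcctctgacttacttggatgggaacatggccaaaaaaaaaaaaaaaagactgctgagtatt
Fabp1, chr6:71199629-71199878, plus strand: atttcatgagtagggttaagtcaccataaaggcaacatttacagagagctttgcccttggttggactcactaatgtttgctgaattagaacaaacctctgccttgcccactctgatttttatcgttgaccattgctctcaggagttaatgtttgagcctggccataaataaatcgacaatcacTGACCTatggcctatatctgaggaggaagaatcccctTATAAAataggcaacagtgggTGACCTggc
Plin2, chr4:86670060-86670309, minus strand: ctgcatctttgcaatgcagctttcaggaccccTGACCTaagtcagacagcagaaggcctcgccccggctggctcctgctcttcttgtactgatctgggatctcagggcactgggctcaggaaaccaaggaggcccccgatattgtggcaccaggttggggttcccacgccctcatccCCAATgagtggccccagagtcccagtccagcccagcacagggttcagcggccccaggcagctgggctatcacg

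The Cd36 window held 1 half-site, 1 NF-Y box and 2 GC boxes, whose last bases lay 104 and 88 bases before the start. Each GC box was inside a copy of a 16-base direct repeat, with the copies next to each other at 111 and 95 bases before the start. The Fabp1 window held a TATA box ending 25 bases before the start and 2 half-sites, and the Plin2 window 1 half-site and 1 NF-Y box. Among 32851 promoter windows of this length, 14.0% held a half-site, 12.4% a TATA box, 33.8% an NF-Y box and 32.7% a GC box. The full PPAR element, a direct repeat of the half-site with 1 base between the copies, was searched as an exact match only. It was in 11 of the 32851 windows and in none of the members' windows. Elements with mismatched bases were not searched, so this does not show that a member lacks one. These matches describe letters only. GENCODE places the outer end of the Cd36 gene 52.9 kb further upstream, so the window shown is not the only start of the gene.

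Cd36, the fatty acid receptor gene (ENSMUSG00000002944; chromosome 5, 17781690 to 17888801, minus strand, mm10), was at 0.145 and 0.134 TPM in the shSafb libraries, against 7.71 and 7.96 TPM in the shCtrl libraries. Both shSafb libraries were close to 0 and the groups lay far apart. The mean was 0.14 ± 0.00729 TPM in shSafb and 7.84 ± 0.175 TPM in shCtrl (SD, n = 2 each), which is 56.1-fold lower, and single pairs of libraries gave 53.3-fold to 59.2-fold. On the log2(scaled TPM + 1) scale, with TPM divided by a median-ratio factor per library, the difference was -2.94 ± 0.12 (SE from limma, a linear model fitted across all genes). This scale understates the change of genes near 0: with a pseudocount of 0.1 TPM the difference was -5.03. Ranked by abundance within a library, Cd36 was at place 17549 and 17668 in the shSafb libraries, against 9040 and 8844 in the shCtrl libraries.

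Among the 10027 genes with a shCtrl mean of at least 5 TPM, a limit chosen after the values were seen, Cd36 had the lowest ratio of shSafb to shCtrl. On the log2(scaled TPM + 1) scale it had the sixth lowest difference of 13111 genes tested. No other gene of the mm10 annotation overlapped Cd36, and its longest transcript matched no other gene over 100 bases at 95% identity.

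**Figure D1:**
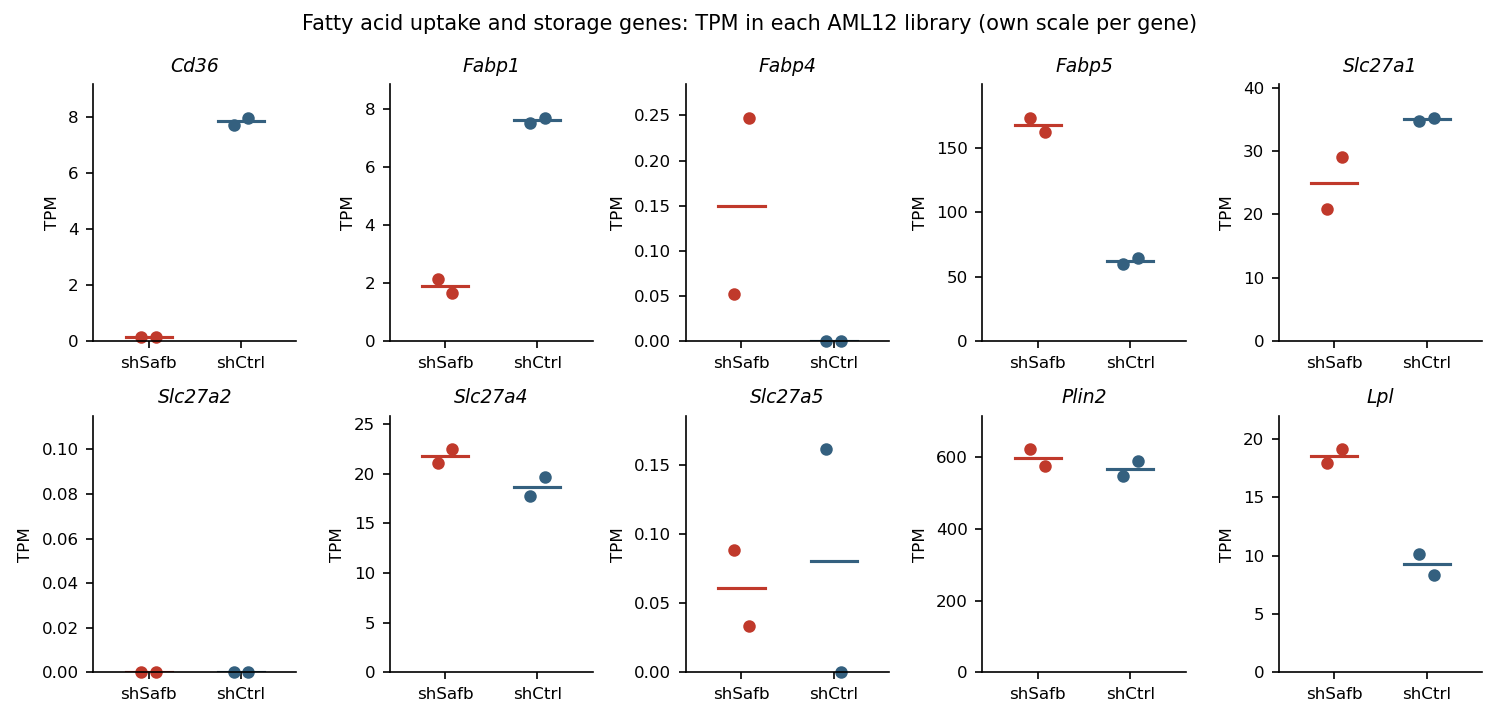
TPM of each member gene (vertical axis, own linear scale from 0 in each panel) in the 2 shSafb libraries (left, red) and the 2 shCtrl libraries (right, blue); points are libraries and bars are group means. Cd36 is near 0 in shSafb, Fabp1 is lower, Fabp5 and Lpl are higher, and Plin2 overlaps between the groups.

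The cytosolic binding proteins went in opposite directions. Fabp1, the main binding protein of normal liver (chromosome 6, 71199827 to 71205023), was at 2.13 and 1.66 TPM in the shSafb libraries, against 7.52 and 7.69 TPM in the shCtrl libraries. The groups did not overlap, and Fabp1 was 4.02-fold lower in shSafb, with a log2 difference of -1.56 ± 0.13. Fabp5, the epidermal-type binding protein gene (chromosome 3, 10012548 to 10016607), was at 173 and 163 TPM in the shSafb libraries, against 59.7 and 64.5 TPM in the shCtrl libraries. Every shSafb value was above every shCtrl value, and Fabp5 was 2.71-fold higher, with a log2 difference of 1.45 ± 0.08.

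Fabp4, the adipocyte and macrophage binding protein gene, was at 0.0516 and 0.247 TPM in the shSafb libraries and was listed at 0 in both shCtrl libraries. It stayed under the filter of a mean of 1 TPM and has no fold. The summed TPM of the 9 Fabp genes in the table was 178 and 166 in the shSafb libraries, against 68.7 and 74.2 in the shCtrl libraries. Fabp5 made up 97.5% and 98.2% of that sum in shSafb and 86.97% and 87.0% in shCtrl, while Fabp1 made up 1.20% and 0.998% in shSafb and 10.9% and 10.4% in shCtrl. The family sum was therefore nearly the level of 1 gene in every library. Fabp5 matched 3 processed pseudogenes over 175 bases at 96.0% to 99.4% identity, none of them above 0.269 TPM, so reads could in principle be shared there.

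The fatty acid transport protein genes among the tested members differed less. Slc27a1, which encodes FATP1 (chromosome 8, 71568882 to 71587302), was at 20.8 and 29.1 TPM in the shSafb libraries, against 34.8 and 35.2 TPM in the shCtrl libraries. The groups did not overlap, but the shSafb libraries differed from each other by more than the nearer one did from shCtrl. Its log2 difference of -0.47 ± 0.16 was -0.23 without shSafb replicate 1 and -0.69 without shSafb replicate 2. Slc27a1 was not called in the main fit, by group alone over all libraries.

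Slc27a4, which encodes FATP4, a transporter and acyl-CoA synthetase of the endoplasmic reticulum (chromosome 2, 29802634 to 29817522), was at 21.0 and 22.4 TPM in the shSafb libraries, against 17.7 and 19.7 TPM in the shCtrl libraries. The shSafb values were slightly above the shCtrl values, with a log2 difference of 0.23 ± 0.09 that was 0.13 without shCtrl replicate 1. The transporter genes typical of liver were at or near 0 in this line. Slc27a2, encoding FATP2, was listed at 0 in all 4 libraries, as was the antisense lincRNA Gm26697 that overlaps it. Slc27a5, encoding the bile acid-CoA ligase FATP5, was at 0.0886 and 0.0333 TPM in the shSafb libraries, against 0.162 and 0 TPM in the shCtrl libraries, with no separation of the groups.

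A sixth transporter gene, Slc27a6, which encodes FATP6, known from human heart, is not a member but changed the make-up of the family. It was at 11.4 and 12.7 TPM in the shSafb libraries, against 2.53 and 2.20 TPM in the shCtrl libraries, a 5.09-fold rise (log2 difference 1.98 ± 0.11, limma Benjamini-Hochberg adjusted p = 8.54e-04). It held 20.4% and 19.5% of the summed Slc27a TPM in shSafb, against 4.47% and 3.73% in shCtrl. The sum over the 6 Slc27a genes was 60.5 ± 7.02 TPM in shSafb and 57.8 ± 1.88 TPM in shCtrl (SD, n = 2 each), a difference smaller than the shSafb spread. Slc27a1 held 37.5% and 44.4% of the sum in shSafb, against 61.7% and 59.6% in shCtrl.

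**Figure D2:**
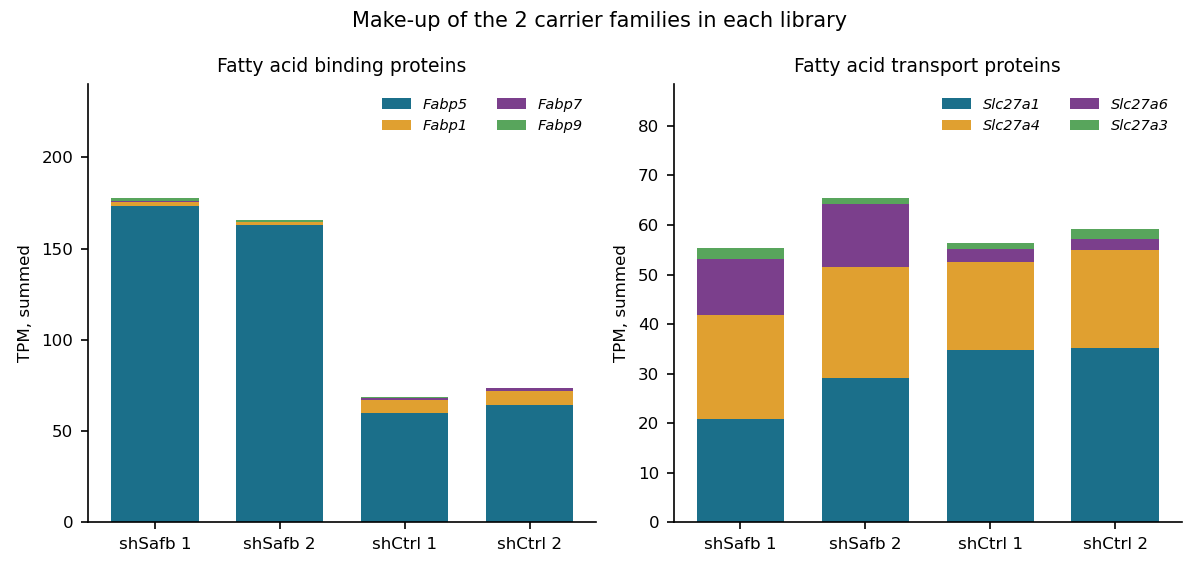
Stacked TPM of the fatty acid binding protein genes with Fabp symbols (left) and the fatty acid transport protein genes (right) in each library (horizontal axis, shSafb before shCtrl). Genes that add under 1 TPM in every library are left out, and Pmp2 is not part of the sum. Fabp5 fills most of the binding protein bar, and the transport protein bars are of similar height with more Slc27a6 in shSafb.

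Plin2, the droplet coat gene (chromosome 4, 86648386 to 86670060), was at 621 and 575 TPM in the shSafb libraries, against 546 and 589 TPM in the shCtrl libraries. The groups overlapped, and the means of 598 ± 32.4 TPM in shSafb and 568 ± 30.2 TPM in shCtrl (SD, n = 2 each) differed by less than the sum of their SDs, with a log2 difference of 0.10 ± 0.07. Plin2 was among the 175 most abundant genes in every library. An unprocessed pseudogene that matches 259 of its bases did not pass 0.157 TPM.

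Lpl, the secreted lipase gene (chromosome 8, 68880491 to 68907448), was at 17.9 and 19.1 TPM in the shSafb libraries, against 10.2 and 8.36 TPM in the shCtrl libraries. Both shSafb values were above both shCtrl values, and Lpl was 1.77-fold to 2.29-fold higher between single pairs of libraries, with a log2 difference of 0.96 ± 0.10. Short stretches of the Lpl transcript matched 19 other genes and of Slc27a1 6 other genes, which limits the read assignment there.

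The order of levels in shSafb was Plin2, Fabp5, Slc27a1, Slc27a4, Lpl, Fabp1, Fabp4, Cd36 and Slc27a5, with Slc27a2 at 0. Neighbours in that order differed by more than the sum of their SDs, except Slc27a1 and Slc27a4, and Fabp4 and Cd36. In shCtrl the order was Plin2, Fabp5, Slc27a1, Slc27a4, Lpl, Cd36, Fabp1 and Slc27a5, with Fabp4 and Slc27a2 at 0. There, Lpl did not differ from Cd36, nor Cd36 from Fabp1, by more than the sum of their SDs, and Slc27a5 could not be set apart from 0.

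Of the 10 members, 7 passed the filter, Cd36 only through its shCtrl values. Of these 7, 2 were higher and 2 lower at a limma adjusted p under 0.05, and 3 were not called. Over all 13111 tested genes, 44.3% were called, 21.9% higher and 22.4% lower. Nothing is read from the members' count, since the members were chosen on this contrast. The groups did not overlap in 6 of the 7, against 74.7% of all tested genes, and the median log2 difference of the 7 was 0.10, against 0.0016 for all tested genes.

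**Figure D3:**
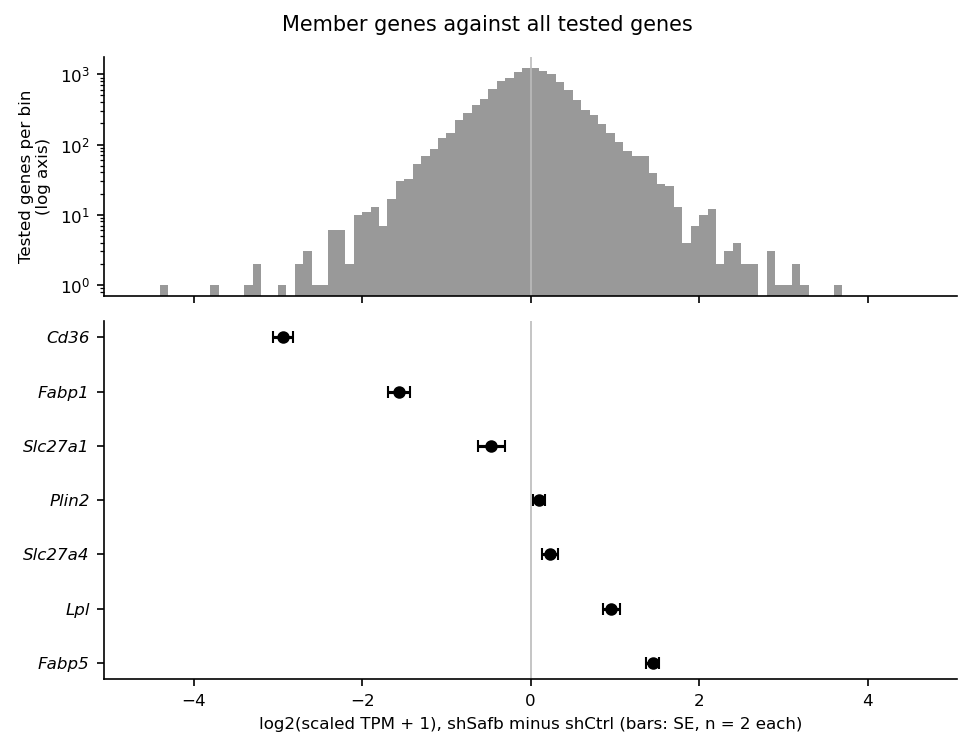
Upper panel, number of tested genes (log axis) per bin of log2 difference, shSafb minus shCtrl; lower panel, the log2 difference of the 7 tested members with limma SE (n = 2 each). Cd36 lies in the far lower tail at -2.94 and Fabp1 at -1.56, while Lpl at 0.96 and Fabp5 at 1.45 lie on the other side of 0.

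By the distance between profiles of log2(scaled TPM + 1) over the 4 libraries, the 5 protein-coding genes nearest to Cd36 were Upk3b (0.536), Rgn (0.773), Abcc6 (0.92), Mmp15 (0.971) and Myl9 (1.03). Upk3b, a uroplakin gene that is also on chromosome 5, was at 0.612 and 0.269 TPM in the shSafb libraries, against 8.45 and 8.08 TPM in the shCtrl libraries. Rgn, the regucalcin gene, was 11.2-fold lower in shSafb, Abcc6, a hepatocyte efflux transporter gene, 9.32-fold, Mmp15, a membrane metalloproteinase gene, 9.67-fold and Myl9, a myosin light chain gene, 12.4-fold. Means of Rgn, Abcc6, Mmp15 and Myl9 were 0.364 to 0.815 TPM in shSafb and 4.52 to 7.88 TPM in shCtrl. Their folds therefore rest on shSafb values near 0. The distance compares levels, so it favours genes about as low as Cd36. The likeness rests on 4 libraries in 2 groups and therefore on the same group difference that singled out Cd36.

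The protein-coding genes next to Cd36 on chromosome 5 were also read, 3 on each side. Sema3c, a secreted semaphorin gene 51.4 kb away on one side, was at 18.3 and 19.9 TPM in the shSafb libraries, against 56.0 and 49.8 TPM in the shCtrl libraries, and fell 2.77-fold (log2 difference -1.40 ± 0.07, limma adjusted p = 8.38e-04). Gnai1, an inhibitory G protein gene 376.3 kb away on the other side, was at 12.3 and 12.7 TPM in shSafb, against 29.5 and 27.2 TPM in shCtrl, and fell 2.26-fold (log2 difference -1.09 ± 0.07, limma adjusted p = 9.36e-04). Gnat3, the taste G protein gene that lies between Cd36 and Gnai1, and Speer4f1 were listed at 0 in all libraries, and Speer4f2 and Magi2 did not pass 0.0808 TPM. Both neighbours that were expressed were lower in shSafb, by much less than Cd36, and 22.4% of all tested genes were called lower.

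**Figure D4:**
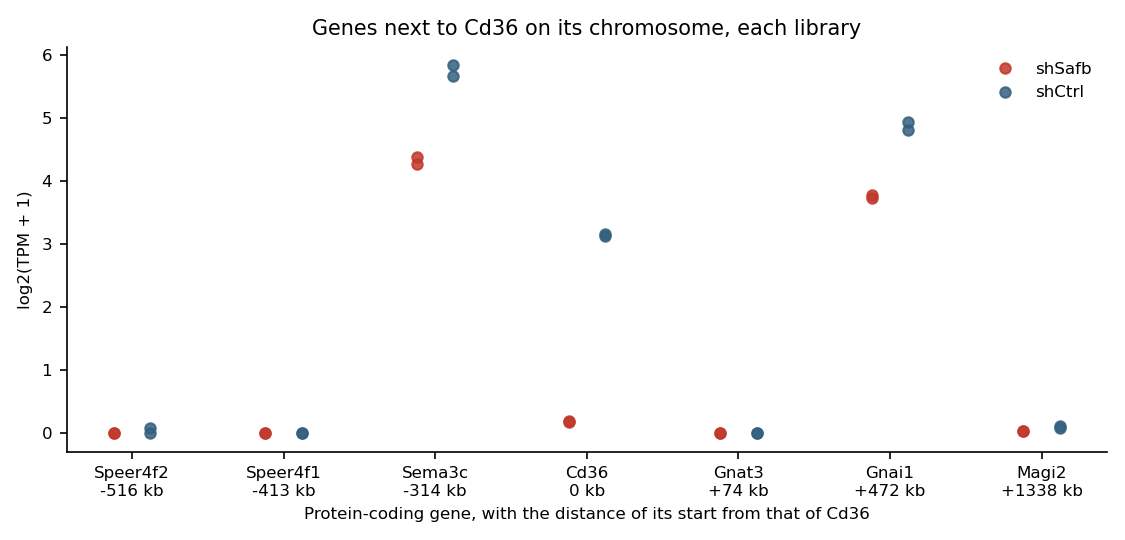
Log2(TPM + 1) of Cd36 and the 3 nearest protein-coding genes on each side (horizontal axis, in chromosome order with the distance between starts) in the 2 shSafb libraries (left, red) and 2 shCtrl libraries (right, blue). Sema3c and Gnai1 are lower in shSafb with Cd36, and the other 4 neighbours are at or near 0.

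The rest of the pathway was read from 7 lists without members, 157 genes in all, of which 116 were tested: 26 were higher, 39 lower and 51 not called. Over all tested genes, 44.3% were called, 21.9% higher and 22.4% lower, and the lists' counts are a description beside these shares. Of 16 other carriers, 9 were tested, with 1 higher, 3 lower and a median log2 difference of -0.0043, against 0.0016 for all tested genes. The 1 that rose was Slc27a6, and 2 rose without shSafb replicate 1. Acbd4, an acyl-CoA binding protein gene, averaged 28.3 ± 2.80 TPM in shSafb and 44.7 ± 1.51 TPM in shCtrl (limma adjusted p = 0.00544). Got2, which encodes mitochondrial aspartate aminotransferase, also described as a plasma membrane fatty acid binding protein, averaged 92.9 ± 0.23 TPM in shSafb and 119 ± 1.27 TPM in shCtrl (limma adjusted p = 0.00561). Dbi, the acyl-CoA binding protein gene, averaged 329.7 ± 2.81 TPM in shSafb and 414 ± 31.8 TPM in shCtrl (limma adjusted p = 0.0364), a call lost without shSafb replicate 1 (adjusted p = 0.130) or 2 (0.114), with no filter (0.0787) and with no intensity trend (0.0735; 0.0141 to 0.130 over 12 alternatives).

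Acyl-CoA synthetases and thioesterases trap or release the fatty acid once it is inside. Of 18 genes, 15 were tested, with 3 higher, 5 lower, 7 not called and a median of -0.13. Acsbg1, a very long-chain synthetase gene, rose to 72.8 and 70.3 TPM in shSafb, against 32.2 and 31.1 TPM in shCtrl (limma adjusted p = 6.73e-04). Acsl4, which prefers arachidonic acid, averaged 119 ± 4.15 TPM in shSafb and 85.2 ± 2.63 TPM in shCtrl (limma adjusted p = 0.00239). Acot2, a mitochondrial thioesterase gene, fell 1.74-fold and Acsf2, a medium-chain synthetase gene, 1.82-fold (limma adjusted p = 0.00281 for Acot2 and 0.00445 for Acsf2). The count of lower genes was 3 without shSafb replicate 1, without shSafb replicate 2 or without shCtrl replicate 1.

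Of 22 genes of the droplet coat and of lipolysis, 14 were tested, with 4 higher, 5 lower, 5 not called and a median of 0.06. Lipe, the hormone-sensitive lipase gene, was at 27.5 and 27.4 TPM in the shSafb libraries, against 5.94 and 6.36 TPM in the shCtrl libraries, a 4.46-fold rise (limma adjusted p = 6.11e-04). G0s2, which encodes an inhibitor of the main triglyceride lipase, averaged 57.6 ± 1.66 TPM in shSafb and 32.2 ± 1.28 TPM in shCtrl (limma adjusted p = 0.00175). Hsd17b11, a droplet-bound dehydrogenase gene, fell 3.17-fold, with 28.2 and 24.9 TPM in shSafb against 85.1 and 83.2 TPM in shCtrl (limma adjusted p = 7.38e-04). Plin3, the other abundant perilipin gene, averaged 130 ± 5.12 TPM in shSafb and 193 ± 0.609 TPM in shCtrl (limma adjusted p = 0.0025), while Plin1 was listed at 0 throughout. Without shSafb replicate 1, the count of lower genes was 3.

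Genes that control lipoprotein lipase and take up its remnants numbered 21, of which 17 were tested, with 7 higher, 4 lower, 6 not called and a median of 0.11. Apoc4, an apolipoprotein gene, rose 1.94-fold and Pcsk6, a proprotein convertase gene, 2.25-fold (limma adjusted p = 8.09e-04 for Apoc4 and 0.00115 for Pcsk6). Sdc1, the syndecan-1 gene, which encodes a heparan sulfate proteoglycan of remnant uptake, fell 2.41-fold (limma adjusted p = 8.86e-04).

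Angptl8 and Angptl4, angiopoietin-like inhibitors of the lipase named after their values were seen, went in opposite directions. Angptl8 averaged 20.4 ± 0.519 TPM in shSafb and 7.47 ± 1.94 TPM in shCtrl (limma adjusted p = 0.00583). Angptl4 averaged 63.5 ± 2.31 TPM in shSafb and 76.5 ± 0.942 TPM in shCtrl (limma adjusted p = 0.0272), a call lost without shSafb replicate 1 (adjusted p = 0.132), shSafb replicate 2 (0.0721) or shCtrl replicate 2 (0.0838), and with no intensity trend (0.0599; 0.0172 to 0.132 over 12 alternatives). Gpihbp1, the endothelial anchor of the lipase, was listed at 0. Without shSafb replicate 2 or without the intensity trend, the count of lower genes in this list was 2.

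**Figure D5:**
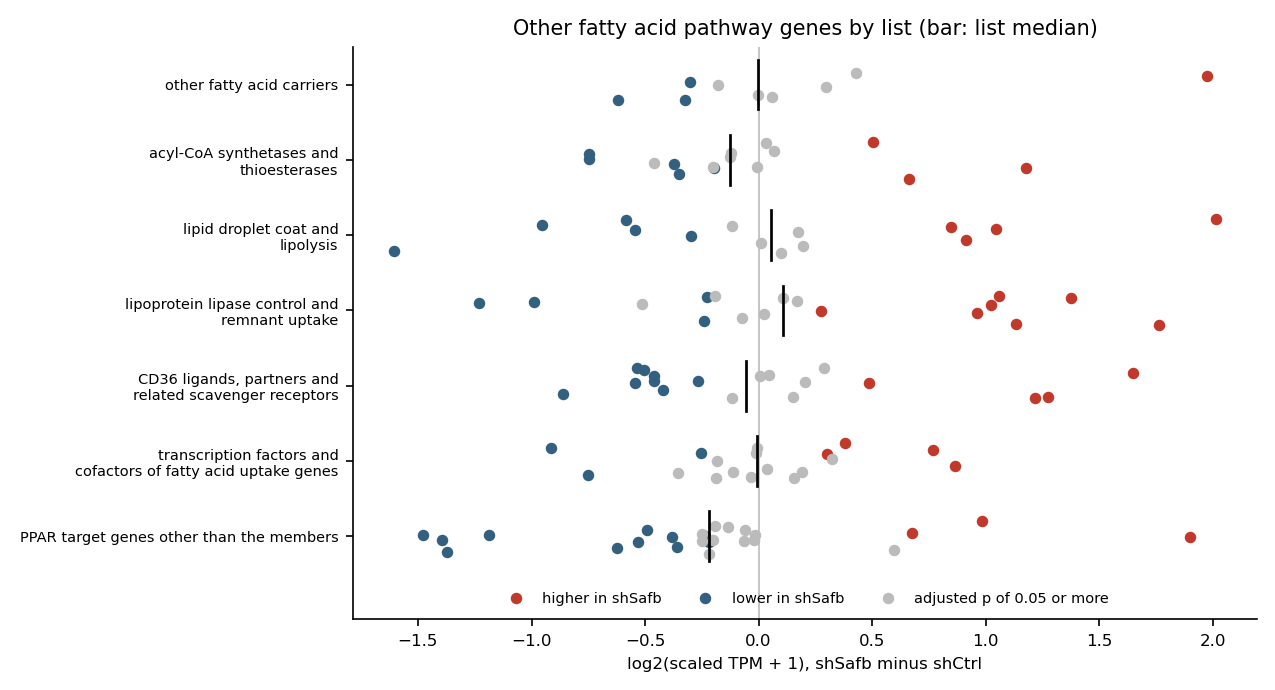
Log2 difference, shSafb minus shCtrl (horizontal axis), of each tested gene in 7 fatty acid pathway lists (rows), coloured by limma call, with a bar at each list's median. Each list holds genes on both sides of 0, and the list medians lie between -0.22 and 0.11.

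Of 26 ligands, partners and relatives of CD36, 18 were tested, with 4 higher, 8 lower, 6 not called and a median of -0.05. Thbs1, which encodes the CD36 ligand thrombospondin-1, was at 30.4 and 30.2 TPM in the shSafb libraries, against 12.9 and 12.4 TPM in the shCtrl libraries, a 2.39-fold rise (limma adjusted p = 7.82e-04). Cd9, a tetraspanin gene, rose 2.40-fold, Stab1, a scavenger receptor gene, 3.83-fold and Cav2, the caveolin-2 gene, 1.38-fold (limma adjusted p = 8.38e-04 for Cd9, 0.00177 for Stab1 and 0.00309 for Cav2). Scarb1, the high-density lipoprotein receptor gene of the same family as Cd36, averaged 10.6 ± 0.743 TPM in shSafb and 16.2 ± 0.0952 TPM in shCtrl (limma adjusted p = 0.00821). Cav1, the caveolin-1 gene, averaged 6.91 ± 0.0261 TPM in shSafb and 13.7 ± 1.66 TPM in shCtrl (limma adjusted p = 0.00356). Scarb1 and Cav1 were named after their values were seen. Msr1, Marco, Stab2 and Fyn were at or near 0 in every library.

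Of 20 transcription factors and cofactors of fatty acid uptake genes, 18 were tested, with 4 higher, 3 lower, 11 not called and a median of -0.01. Nr1i2, which encodes the xenobiotic receptor PXR, was at 2.96 and 3.17 TPM in the shSafb libraries, against 7.25 and 6.34 TPM in the shCtrl libraries (limma adjusted p = 0.00392). Nfe2l2, the NRF2 gene, fell 1.72-fold, while Cebpb, the gene of a liver bZIP factor, rose 1.80-fold and Ahr, the aryl hydrocarbon receptor gene, 1.72-fold (limma adjusted p = 0.00113 for Nfe2l2, 0.00132 for Cebpb and 0.00328 for Ahr). The PPAR genes were named after their values were seen. Ppara averaged 41.6 ± 0.684 TPM in shSafb and 32.4 ± 2.98 TPM in shCtrl (limma adjusted p = 0.0121), a call lost without shSafb replicate 1 (adjusted p = 0.0510) or 2 (0.0573; 0.0123 to 0.0573 over 12 alternatives). Pparg averaged 5.08 ± 0.255 TPM in shSafb and 5.69 ± 0.772 TPM in shCtrl and was not called (limma adjusted p = 0.534). Without shSafb replicate 2, the count of higher genes was 2.

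PPAR target genes other than the members numbered 34, of which 33 were in the table and 25 were tested, with 3 higher, 11 lower, 11 not called and a median of -0.22. Creb3l3, which encodes a liver transcription factor of fasting, fell 3.11-fold and Acadm, a medium-chain oxidation gene, 2.35-fold (limma adjusted p = 8.63e-04 for Creb3l3 and 6.11e-04 for Acadm). Ucp2, a mitochondrial carrier gene, went the other way and rose 4.06-fold, at 28.5 and 26.3 TPM in shSafb against 6.11 and 7.39 TPM in shCtrl (limma adjusted p = 0.00105).

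Cd36, Fabp4 and Lpl are also genes of adipocytes, macrophages and endothelium, so markers of those cells were read. Of 11 endothelial markers, 0 averaged 1 TPM and 7 were at 0 in every library, Cdh5 and Kdr among them. Of 10 adipocyte markers, 2 averaged 1 TPM, and Adipoq, Lep, Retn, Cfd and Plin1 were at 0. Their sum was 33.01 and 33.2 TPM in shSafb, against 12.04 and 13.7 TPM in shCtrl, of which Lipe and Pparg were nearly all. Lipe was at 27.5 and 27.4 TPM in shSafb, against 5.94 and 6.36 TPM in shCtrl. Pparg overlapped between the groups, at 4.90 and 5.26 TPM in shSafb and 5.14 and 6.24 TPM in shCtrl. Cidec and Cidea stayed under 1 TPM and were lower in shSafb. Of 12 macrophage markers, 2 averaged 1 TPM, and Adgre1, Cd163, Clec4f and Tyrobp were at 0. The macrophage sum was 66.8 and 69.4 TPM in shSafb, against 122 and 117 TPM in shCtrl, nearly all of it Cd14. Csf1r, the other marker that averaged 1 TPM, went the other way. It was at 1.92 and 1.72 TPM in shSafb, against 0.239 and 0.450 TPM in shCtrl. The part of these markers in the members' differences was not tested. Stellate or fibroblast markers summed to 2.94 to 3.30 TPM in every library, and 1 of 11 averaged 1 TPM. Of 8 cholangiocyte markers, 6 averaged 1 TPM, with sums of 1541 and 1606 TPM in shSafb, against 1711 and 1671 TPM in shCtrl. Within that sum, the keratin gene Krt19 was at 676 and 679 TPM in shSafb against 319.9 and 320.1 TPM in shCtrl, and Spp1, the osteopontin gene, at 609.7 and 671 TPM in shSafb against 1108 and 1101 TPM in shCtrl. Hepatocyte markers summed to 13624 and 13453 TPM in shSafb, against 9636 and 9584 TPM in shCtrl. The sum followed Trf, at 6814 and 6778 TPM in shSafb against 2453 and 2418 TPM in shCtrl, while Alb, the albumin gene, was at 122 and 127 TPM in shSafb against 378 and 345 TPM in shCtrl. Whether these shifts bear on the members was not tested.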

How the data were processed

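Per the labels' protocols, total RNA of 4 AML12 samples was depleted of ribosomal RNA and sequenced in strand-specific libraries. The tools HISAT2, HTSeq, StringTie and DESeq2 with mm10 are named in the submitters' processing notes, without versions or roles. The counting strand, not given in the sources used here, stays unknown. The authors deposited TPM, 1 value per gene and library, which were used as deposited. The table holds 52200 rows, and 6 identifiers on more than 1 row were summed. Groups and replicate numbers come from the titles.

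The 13111 genes that averaged 1 TPM or more were divided by median-ratio factors (0.991 to 1.03), and log2(TPM + 1) was fitted with limma 3.58.1 in R 4.3.3 (group only, intensity trend, two-sided, Benjamini-Hochberg adjusted p under 0.05; 2 residual and 2.61 prior degrees of freedom). The script was tested on simulated data. Coordinates and gene types are from GENCODE mouse release 21 on mm10, promoters from RefSeq on GRCm38.p6, and transcript copies from BLAST 2.17.0. Figures were drawn with matplotlib 3.10.9, and tables were read with pandas 2.3.3 (Python 3.11.15, numpy 2.4.6).

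The members, lists, tests and alternatives were chosen with earlier results of these data known. Members got no p-value and lists no set test. Named beside the members were up to 4 called genes with the smallest p of each list, the 5 nearest profiles to Cd36 and its 3 protein-coding neighbours on each side. Some genes that the rule names are not reported here. Genes named outside it are said to be chosen after their values were seen. Alternatives changed the pseudocount, filter, scaling or intensity trend, added a replicate block, or left out each library in turn.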

Additional observations from a re-analysis of the deposited data

How the results depend on the processing

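All 84 recomputed log2 differences of the 7 tested members kept their sign over the 12 alternatives, and 72 were within 1 standard error of the reported value. The differences of Cd36 and Fabp1, which lie at low TPM, depended on the pseudocount: Cd36 was at -5.03 with 0.1 TPM and -3.69 with 0.5 TPM, and Fabp1 at -1.94 and -1.74. In the fit without mitochondrial genes and small RNA, Cd36 was at -3.37 and Fabp1 at -1.70. That fit rescaled the remaining genes to the full total without median-ratio factors, which raised their TPM against the pseudocount. Slc27a1 was at -0.23 without shSafb replicate 1 and -0.69 without shSafb replicate 2. Whether Slc27a1 was called depended on the setting, with a replicate block among those that called it lower. Nothing is read from this, since the members were chosen on this contrast. Plin2 was at 0.01 without shCtrl replicate 1. Over all genes, the number called higher was 1768 to 2124 when a library was left out, against 2867 with all 4, and the number called lower 1961 to 2186, against 2938. Each such fit left 1 library alone in its group, which was assumed to vary like the other group. Over the pathway lists, leaving out a library gave 23 to 25 genes higher and 28 to 34 lower, against 26 and 39 with all 4.

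Same-numbered libraries did not deviate together (correlation of deviations across genes -0.06), so the numbers were not taken as pairs. With a replicate block, 2540 genes were called higher and 2686 lower, and 26 and 35 of the pathway genes. Depth is unknown, so how precise the Cd36 level near 0 is in shSafb cannot be given.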
